A study of Mus musculus with 12 samples.

Results

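Gene expression in sorted mouse beta cells was compared between postnatal day 10 (P10) and postnatal day 1 (P1), the interval in which the cells take on regulated insulin release. The comparison rests on 5 of the 12 samples of the study, taken by the age in their titles, with 3 samples at P1 and 2 at P10. The other samples, 4 of E18.5, a stage of late gestation, and 3 of adults of 5 weeks, served to estimate the spread and as values to set beside those of the interval. All animals carried 1 copy of a Pdx1-GFP transgene (GFP is green fluorescent protein) on a cross with ICR, an outbred stock. No treatment or deletion is given for either age. Trypsin was used to dissociate the islets, GFP-positive cells were collected by flow cytometry, and the RNA of each sample was read on 1 Illumina expression array. Pdx1 is a transcription factor of beta cells that is also made in somatostatin cells of the islet and, at lower levels, in exocrine cells, so the gate does not by itself limit the sort to beta cells. Nothing in the labels tells whether each sample had its own litter or pool of animals, so p-values cover the spread between these samples alone, and the number of arrays limits the precision.

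Beta cells of newborn mice hold insulin but release it poorly in response to glucose, and glucose-regulated release is acquired during the first weeks after birth. The process is known for a rise of the peptide urocortin 3, for changes in the proteins that couple calcium to granule fusion, and for the loss of fetal and imprinted gene products. Exocrine acinar cells surround the islets and make the digestive enzymes, whose output also grows after birth. Digestive enzyme genes are therefore reported apart from genes of beta cells.

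Levels are normalized log2 intensities of the probe that stands for a gene, differences are P10 minus P1 in log2 units ± standard error, and folds are the same differences on a linear scale. A gene rose or fell where its adjusted p in the limma fit over all genes was under 0.05. Of 9193 genes tested, 512 rose (5.57%) and 565 fell (6.15%), together 11.7%, and the median difference over all genes was 0.001. A change of over 2-fold was found in 109 of the genes that rose and 133 of those that fell. Without regard to the test, both P10 samples lay above all P1 samples in 22% of genes and below them in 22.8%. On the 5 arrays at most 45.1% of probes were above background, with 44.4% and 44.9% on those of P10. Across genes, P1 samples correlated with each other at r from 0.980 to 0.988, both P10 samples at 0.987, and P1 with P10 samples at 0.947 to 0.968, although genes are not independent replicates. The number of calls was 389 without P10 replicate 1, 514 without P10 replicate 2 and 699 without P1 replicate 2. In these bulk samples, fewer cells of a type and less RNA per cell cannot be told apart.

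**Figure D1:**
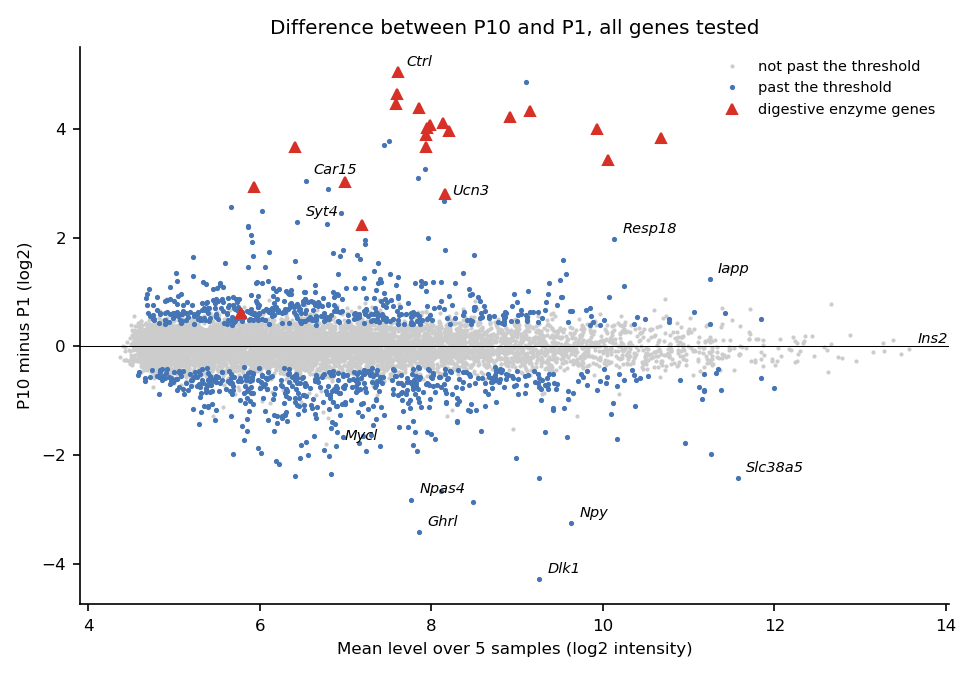
Each point is 1 of the 9193 genes, with its mean level over the 5 samples on the x axis (log2 intensity) and its P10 minus P1 difference on the y axis (log2), blue past the threshold and red for digestive enzyme genes. The digestive enzyme genes form most of the points above 3, Car15 is at 3.05 and Ucn3 at 2.67, and Dlk1 is the lowest point at -4.27.

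Hormone genes of beta cells and of other islet cells were bright, so these genes alone do not limit the samples to beta cells. Ins2, an insulin gene, stood at 13.60 in each of the 3 P1 samples and at 13.54 in both P10 samples, near the top of the range, where a change could be hidden. Slc2a2, the glucose transporter of mouse beta cells, was also bright, with a difference of 0.09 ± 0.18 (adjusted p = 0.78). Hormone genes of the other islet cells were bright too. Gcg, which encodes glucagon of alpha cells, stood at 12.55, 12.10 and 12.39 at P1 and at 12.81 and 13.43 at P10 (0.78 ± 0.86, adjusted p = 0.62). Sst, which encodes somatostatin of delta cells, lay between 13.25 and 13.40 at P1 and at 13.50 and 13.40 at P10. Ppy, which encodes pancreatic polypeptide, was at 10.35, 10.76 and 11.62 at P1 and at 11.93 and 12.76 at P10, a difference of 1.44 ± 0.75 that did not pass (adjusted p = 0.25). Of 12 tested marker genes of the alpha, delta, PP or epsilon cell, 1 rose (8.33%), 3 fell (25%) and 8 did not pass. Over all genes the shares were 5.57% and 6.15%. The mean level of the 12 genes was between 9.89 and 10.07 at P1 and at 9.42 and 9.75 at P10. The part of the other islet cells in the differences below was not tested.

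Ucn3, which encodes urocortin 3, a peptide that mature beta cells release with insulin, was at 6.80, 7.43 and 7.02 in P1 replicates 1, 2 and 3 and at 9.70 and 9.79 in P10 replicates 1 and 2. Both P10 samples lay far above the highest P1 sample and within 0.1 of each other, and the gene rose by 2.67 ± 0.19 or 6.34-fold (adjusted p = 1.5e-06). Iapp, the islet amyloid polypeptide stored in insulin granules, was at 10.92, 11.20 and 10.14 at P1 and at 12.26 and 11.71 at P10. The groups did not overlap, although P1 replicate 3 was clearly below the other P1 samples, and the rise was 1.23 ± 0.28 or 2.35-fold (adjusted p = 0.011, and 0.15 without P10 replicate 1). Ero1b, an oxidase of the endoplasmic reticulum that forms disulfide bonds in proinsulin, was at 9.74, 9.77 and 9.90 at P1 and at 10.92 in both P10 samples, a rise of 1.12 ± 0.21 (adjusted p = 0.0036). Pcsk1n, which encodes proSAAS, a granule protein that inhibits the prohormone convertase PC1/3, rose by 0.92 ± 0.16 (adjusted p = 0.0023), from 9.53, 9.88 and 9.71 to 10.46 and 10.79. These were the 3 of 16 tested genes of insulin processing and granule cargo that rose. None fell, 13 did not pass, and the median difference of the list was 0.28. The share that rose was 18.8%, beside 5.57% of all genes. Among those that did not pass were Slc30a8, the zinc transporter of the granule, at 0.37 ± 0.14 (adjusted p = 0.11), and Ptprn, a membrane protein of the granule, at 0.43 ± 0.15 (adjusted p = 0.085).

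Genes of glucose sensing and of the triggering of release gave 1 call. Of 21 tested 1 rose, 0 fell and 20 did not pass, with a median of 0.08. The share that rose was 4.76%, near the 5.57% over all genes, of which 6.15% fell. The gene that rose was Trpm5, a cation channel that adds to the depolarization of glucose-stimulated beta cells. It was at 7.07, 7.26 and 6.96 at P1 and at 8.32 and 8.43 at P10, with all P10 values above all P1 values, and rose by 1.27 ± 0.18 or 2.42-fold (adjusted p = 0.00038). Its other kept probe gave 1.15. Abcc8, the sulfonylurea receptor subunit of the ATP-sensitive potassium channel, stood at -0.09 ± 0.19 (adjusted p = 0.81), and the groups overlapped. G6pc2, an islet glucose-6-phosphatase, was at 11.15, 11.51 and 11.29 at P1 and at 11.88 and 11.73 at P10, higher in both P10 samples, but did not pass (0.48 ± 0.24, adjusted p = 0.21). Gpd2, the mitochondrial glycerol phosphate dehydrogenase, stood at 0.43 ± 0.19 (adjusted p = 0.17), and the calcium channel gene Cacna1a at 0.41 ± 0.19 (adjusted p = 0.19). Of 12 tested genes of hormone and transmitter receptors 0 rose and 0 fell in the limma test, beside the same shares over all genes. An unadjusted p under 0.05 was found for 3 of them, and for 2365 of all 9193 genes. Glp1r, the receptor of the incretin GLP-1, was below background in all P1 samples and did not pass (adjusted p = 0.094).

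Among genes of granule fusion, some synaptotagmin genes and both named CAPS genes rose, while the syntaxin gene Stx1a and the calcium sensor gene Doc2b fell. Syt4, a synaptotagmin that lowers the sensitivity of release to calcium in mouse beta cells, was at 5.41, 5.55 and 5.60 at P1 and at 7.72 and 7.89 at P10. The gap between the ages was many times the spread within either, and Syt4 rose by 2.28 ± 0.13 or 4.86-fold (adjusted p = 1.4e-07). Of the other synaptotagmins tested, Syt9, a calcium sensor of dense-core granules, rose by 0.63 ± 0.16 (adjusted p = 0.019, and 0.14 and 0.076 without P10 replicates 1 and 2). Syt5 rose by 0.57 ± 0.16 (adjusted p = 0.030), a call that ended at an adjusted p of 0.052 to 0.26 when P1 replicate 2 or P10 replicate 1 or 2 was left out. In all, 3 of the 7 tested synaptotagmin genes rose and 0 fell, beside the same shares over all genes. Cadps2 and Cadps, which encode the CAPS proteins that prime granules for release, rose by 0.68 ± 0.13 (adjusted p = 0.0038) and 0.60 ± 0.14 (adjusted p = 0.011). Without P10 replicate 1 their adjusted p was 0.058 and 0.13. Stx1a, the syntaxin of the plasma membrane to which granules fuse, went the other way. It was at 8.25, 8.47 and 8.24 at P1 and at 6.77 and 6.93 at P10, with no overlap, and fell by 1.47 ± 0.15 (adjusted p = 2.4e-05). Doc2b, a high-affinity calcium sensor, fell by 1.28 ± 0.23 (adjusted p = 0.0021), from 7.29, 6.70 and 6.33 to 5.58 and 5.41. The exocytosis list of 27 tested genes held 5 that rose, 2 that fell and 20 that did not pass (median 0.08), and without P10 replicate 1 the counts were 1 and 2.

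Several of the largest rises outside the acinar lists, genes with clone-like names left aside, were in secreted, membrane or granule proteins. Car15, a membrane-bound carbonic anhydrase, was at 5.24, 5.45 and 5.25 at P1 and at 8.47 and 8.25 at P10, and rose by 3.05 ± 0.23 or 8.27-fold (adjusted p = 1.9e-06). Resp18, a granule protein of neuroendocrine cells, rose from 9.30, 9.25 and 9.48 to 11.18 and 11.44, by 1.97 ± 0.13 (adjusted p = 8.2e-07). Gpr158, an orphan receptor that binds regulators of G protein signalling, rose from 7.25, 7.11 and 7.12 to 9.29 and 9.01, by 1.99 ± 0.14 (adjusted p = 1.2e-06). In each of these genes the lowest P10 sample was more than 1 log2 unit above the highest P1 sample. Rgs9, one of those regulators, rose by 1.88 ± 0.19 (adjusted p = 2.2e-05), from between 6.43 and 6.52 at P1 to 8.42 and 8.29 at P10. Of the 13 tested genes with Rgs symbols 4 rose and 0 fell, beside 5.57% and 6.15% of all genes. The others that rose were Rgs4 at 1.01 ± 0.18, Rgs7 at 0.71 ± 0.13 and Rgs7bp, which encodes a protein that anchors Rgs7, at 0.67 ± 0.15. The adjusted p of Rgs7bp was 0.0088, and 0.070 and 0.066 without P10 replicates 1 and 2. Dpp4, the peptidase that cleaves incretins, was at 6.48, 6.33 and 6.56 at P1 and at 8.14 and 8.13 at P10 (1.68 ± 0.15, adjusted p = 8.9e-06). Adh1, an alcohol and retinol dehydrogenase, rose from 7.27, 7.54 and 7.55 to 9.26 and 9.19 (1.77 ± 0.16, adjusted p = 8.6e-06). Cbln4, a secreted synapse organizer, rose 3.15-fold and Serpina10, a protease inhibitor, 3.16-fold. Pdyn, the gene of prodynorphin, an opioid precursor, rose 3.33-fold by the probe used (1.73 ± 0.30, adjusted p = 0.0019), while its other probe gave 0.43. Dapl1, Ddit4l, an inhibitor of mTORC1, Angptl7, a secreted angiopoietin-like protein, and Abcb4, a phospholipid transporter, rose 4.64-fold, 4.16-fold, 3.89-fold and 3.31-fold.

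**Figure D2:**
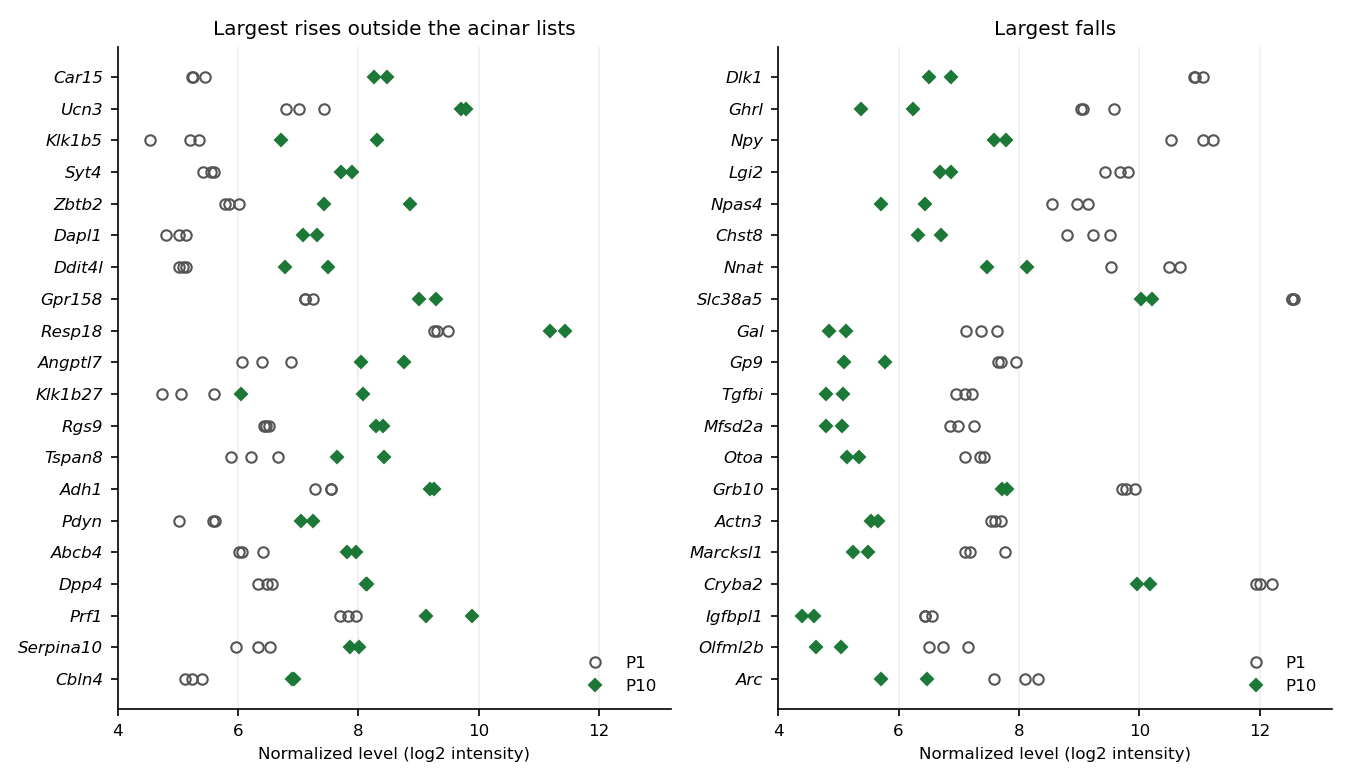
Normalized levels (log2 intensity, x axis) of the 20 genes with the largest rises outside the acinar lists (left) and the 20 with the largest falls (right), genes with clone-like names (Gm or Rik symbols and the like) left out, with each P1 sample as an open circle and each P10 sample as a filled diamond. The P1 and P10 samples of every gene shown are apart, as the choice of these genes required, and the P10 samples of Klk1b5, Klk1b27 and Zbtb2 are more than 1 log2 unit from each other.

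Genes with clone-like names were left out of these 20 rises, among them Gm5409, Gm5771 and 2210010C04Rik, which rose 9.63-fold, 8.54-fold and 4.58-fold. These genes are on chromosome 6, as are the trypsinogen genes Prss2 and Try10. In each, P1 replicate 3 was the highest P1 sample and P10 replicate 1 the higher P10 sample, as in Prss2 and Try10. Whether they belong with the digestive enzyme genes was not tested. Of the 20, 15 were called whichever single sample of the 12 was left out. Klk1b5 and Klk1b27, 2 kallikrein genes, rose by 2.48 ± 0.51 and 1.93 ± 0.54, and P10 replicate 1 was above replicate 2 by more than 1 log2 unit in both. Without P10 replicate 1 the adjusted p was 0.12 for Klk1b5 and 0.41 for Klk1b27, and Klk1b27 also lost its call without P1 replicate 1 or 2 (0.099 and 0.087). The other probe of Klk1b5 gave 0.20. Zbtb2, a zinc finger gene, rose by 2.26 ± 0.59 (adjusted p = 0.022), a call that ended at an adjusted p of 0.057 to 0.25 when P1 replicate 1 or 2 or P10 replicate 1 was left out. Prf1, which encodes perforin, rose by 1.67 ± 0.41 (adjusted p = 0.016, and 0.18 without P10 replicate 1). Tspan8, a tetraspanin, rose by 1.77 ± 0.46 (adjusted p = 0.022), a call that ended at an adjusted p of 0.054 to 0.21 when P1 replicate 1 or 2 or P10 replicate 1 or 2 was left out.

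The largest fall was that of Dlk1, a paternally expressed imprinted gene for a Notch-family ligand of fetal tissues. It was at 11.06, 10.93 and 10.90 at P1 and at 6.88 and 6.51 at P10, with a P1 spread far below the gap, and fell by 4.27 ± 0.14 or 19.3-fold (adjusted p = 1.6e-10). Nnat, the imprinted gene neuronatin, was at 10.68, 10.49 and 9.52 at P1 and at 7.47 and 8.14 at P10 (-2.42 ± 0.40, adjusted p = 0.0013). Grb10, an imprinted adaptor that restrains insulin and growth factor receptors, fell by 2.04 ± 0.19 (adjusted p = 1.2e-05), from between 9.71 and 9.93 to 7.73 and 7.80. Cdkn1c, the imprinted cell cycle inhibitor p57, was at 7.60, 7.42 and 7.50 at P1 and at 5.59 and 5.64 at P10, a fall of 1.89 ± 0.18 (adjusted p = 1.6e-05). The P10 samples of these genes lay below all P1 samples. Igf2bp3, a fetal RNA-binding protein, fell by 1.65 ± 0.15 (adjusted p = 8.6e-06). Over all genes 6.15% fell and 5.57% rose. The list of 18 tested fetal and imprinted genes had a median of -0.44, and 7 of them fell (38.9%), 1 rose (5.56%) and 10 did not pass. The exception was Nap1l5, an imprinted nucleosome assembly gene, which rose by 1.17 ± 0.15 (adjusted p = 0.00018), from 5.31, 5.57 and 5.58 to 6.45 and 6.86. Igf2, the fetal growth factor, was lower in both P10 samples (7.65 and 8.43) than at P1 (9.05, 9.33 and 10.31) but did not pass (-1.52 ± 0.53, adjusted p = 0.080), and neither did Peg3 (0.49 ± 0.17, adjusted p = 0.075).

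Several genes of neuropeptides and gut hormones also fell. Ghrl, which encodes ghrelin of epsilon cells, was at 9.57, 9.03 and 9.07 at P1 and at 5.38 and 6.25 at P10, a fall of 3.41 ± 0.51 or 10.7-fold (adjusted p = 0.00069). Npy, which encodes neuropeptide Y, a peptide of immature beta cells, was at 11.22, 11.05 and 10.52 at P1 and at 7.59 and 7.79 at P10. It was 9.47-fold lower at P10 (-3.24 ± 0.34, adjusted p = 2.9e-05), and the groups were more than 2 log2 units apart. Gal, the gene of galanin, an inhibitor of insulin release, was below background in 1 of 2 P10 samples and fell by 2.39 ± 0.21 (adjusted p = 8.6e-06), from 7.37, 7.63 and 7.12 to 5.13 and 4.84. Trh, which encodes thyrotropin-releasing hormone, was below background in both P10 samples and at least 1.40-fold lower there (adjusted p = 0.0038, and 0.062 without P10 replicate 1). With Ucn3 and Pdyn on the other side, 2 of 15 tested peptide genes rose (13.3%), 4 fell (26.7%) and 9 did not pass, with a median of -0.05. The shares over all genes were 5.57% and 6.15%.

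The remaining large falls belonged to varied functions. Lgi2, a secreted leucine-rich repeat protein, was 7.27-fold lower, from 9.42, 9.68 and 9.81 at P1 to 6.86 and 6.68 at P10 (-2.86 ± 0.28, adjusted p = 2.0e-05). Chst8, a sulfotransferase of glycoprotein hormones, was 6.34-fold lower, and Slc38a5, a glutamine transporter also known from alpha cells, 5.35-fold lower. Slc38a5 was among the brightest genes at P1, between 12.53 and 12.57, and stood at 10.03 and 10.21 at P10 (adjusted p = 8.6e-06). Cryba2, a crystallin expressed in endocrine cells, fell by 1.98 ± 0.17 (adjusted p = 8.3e-06), from at least 11.93 in the P1 samples to 10.18 and 9.96. Gp9, Tgfbi, an extracellular matrix protein, Mfsd2a, a lipid transporter, Otoa, Actn3, an actinin, and Marcksl1 fell between 3.97-fold and 5.05-fold. Tgfbi and Mfsd2a were each below background in 1 of 2 P10 samples, and the other probes of Tgfbi and Marcksl1 fell less, by 0.66 and 0.60. Igfbpl1 was below background in both P10 samples and at least 3.06-fold lower (adjusted p = 2.3e-07). Of the 20 largest falls, again without clone-like names, 19 were called whichever sample was left out, and the exception, Arc, is described with the activity genes.

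Of 23 tested transcription factors of beta cell identity 1 rose, 3 fell and 19 did not pass, with a median of -0.11. The shares were 4.35% and 13%, against 5.57% and 6.15% of all genes. Pdx1 stood at 0.32 ± 0.16 (adjusted p = 0.22), Neurod1 at 0.31 ± 0.16 (adjusted p = 0.23) and Mafa, a factor of mature beta cells, at 0.21 ± 0.26 (adjusted p = 0.68). Mafa was dim throughout, at 5.27, 5.46 and 4.97 at P1 and at 5.40 and 5.48 at P10, and its groups overlapped. Nkx6-1, which represses alternative islet fates, was at 9.81, 9.83 and 9.56 at P1 and at 9.05 and 9.06 at P10. The difference was small and regular, -0.68 ± 0.16 (adjusted p = 0.011), and the adjusted p was 0.085 and 0.070 without P10 replicates 1 and 2. Prox1, a factor of pancreatic progenitors, fell by 0.82 ± 0.19 (adjusted p = 0.013, and 0.091 and 0.083 without P10 replicates 1 and 2). Pax4, a factor of beta cell specification, was below background in both P10 samples and at least 1.11-fold lower (adjusted p = 0.0091, and 0.081 and 0.060 without P10 replicates 1 and 2). St18, a zinc finger factor of endocrine cells, rose by 0.75 ± 0.21 (adjusted p = 0.035), a call that ended at an adjusted p of 0.055 to 0.31 when a P1 sample or P10 replicate 1 was left out. In limma 0 of the 23 passed without P10 replicate 1, and without P10 replicate 2 only St18 did, while 9 had an unadjusted p under 0.05 with all samples. Of 25 tested genes of progenitors and Notch signalling 0 rose and 5 fell, 2 of them without P10 replicate 1. With all samples the share that fell was 20%, against 6.15% of all genes. Mfng, a modifier of Notch, fell by 1.60 ± 0.21 (adjusted p = 0.00029, other probe -0.62), and Gadd45a, a growth arrest gene, by 1.21 ± 0.18 (adjusted p = 0.00076). Mdk, which encodes the growth factor midkine, fell by 1.26 ± 0.24 (adjusted p = 0.0032, and 0.077 without P10 replicate 1).

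**Figure D3:**
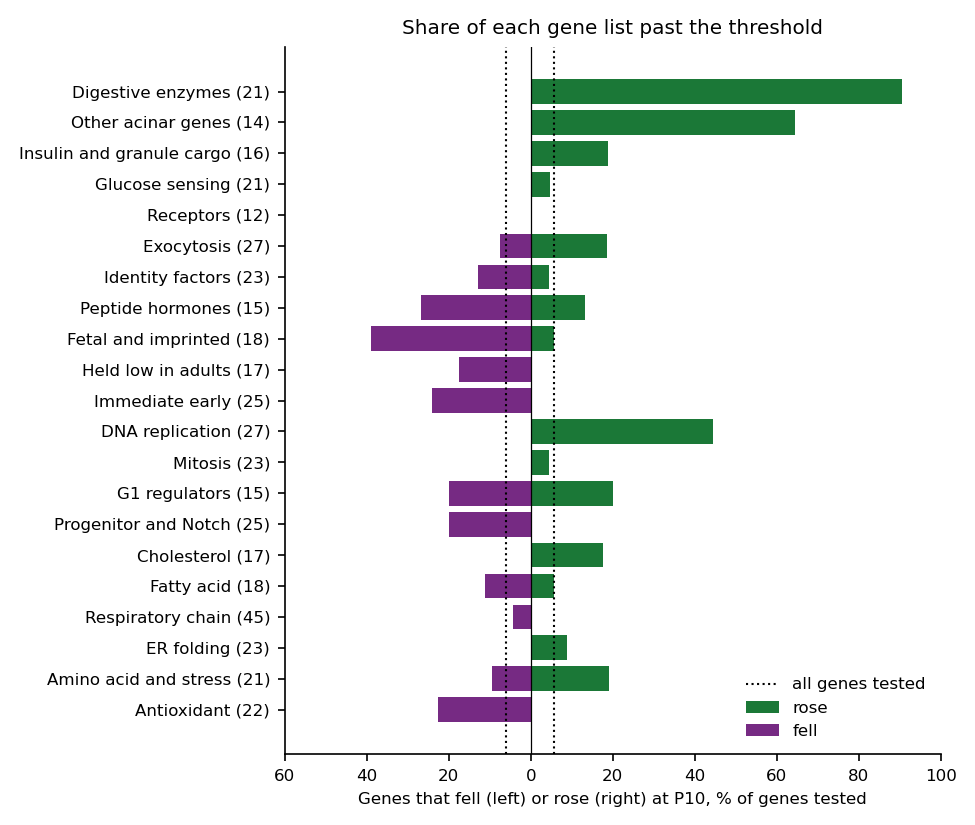
Share of the tested genes of each list (number in brackets) that rose (green, to the right) or fell (purple, to the left) at P10, in percent, with dotted lines at the shares over all genes tested. Digestive enzymes reach 90.5% to the right, DNA replication 44.4%, and fetal and imprinted genes 38.9% to the left.

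Among genes of the cell cycle, calls were found mainly for DNA replication. Of 27 tested replication genes 12 rose (44.4%, beside 5.57% of all genes), 0 fell and 15 did not pass, with a median of 0.53. Tk1, thymidine kinase, was at 5.30, 4.97 and 5.11 at P1 and at 6.26 and 6.19 at P10 and rose by 1.10 ± 0.18 (adjusted p = 0.0012), with 0.23 by its other probe. Mcm4, a subunit of the replicative helicase, was at 7.99, 7.10 and 7.52 at P1 and at 8.60 and 8.50 at P10. It rose by 1.01 ± 0.20 (adjusted p = 0.0042, and 0.056 without P10 replicate 1). P1 replicate 1 was the highest P1 sample of Mcm4, and of Cdc7, the kinase that fires origins, which rose by 0.98 ± 0.20 (adjusted p = 0.0055, and 0.063 without P10 replicate 1). Tyms, thymidylate synthase, rose by 0.90 ± 0.20 (adjusted p = 0.0083, and 0.11 without P10 replicate 1), with 0.06 as the lowest of its 3 probes. Without P10 replicate 1, 1 of the 27 genes rose, without P1 replicate 2, 8 rose, and without P10 replicate 2, 11 rose. Of 23 tested mitosis genes 1 rose, Pbk, a mitotic kinase, by 1.11 ± 0.29 (adjusted p = 0.023), a call that ended at an adjusted p of 0.059 to 0.19 when P1 replicate 2 or 3 or P10 replicate 1 or 2 was left out. Without P1 replicate 1, 7 mitosis genes rose, while with all samples the share was 4.35%, near the 5.57% over all genes. Top2a, a topoisomerase of dividing cells, was at 6.84, 5.92 and 5.91 at P1 and at 7.24 and 6.71 at P10 (0.75 ± 0.28, adjusted p = 0.098), and P1 replicate 1 overlapped the P10 samples.

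Regulators of entry into the cycle were split. Ccnd2, cyclin D2, the main D cyclin of postnatal beta cells, was at 9.45, 9.21 and 8.83 at P1 and at 10.10 and 10.05 at P10, and rose by 0.91 ± 0.17 (adjusted p = 0.0033). Ccnd1, cyclin D1, rose by 1.18 ± 0.27 (adjusted p = 0.011, and 0.13 without P10 replicate 2). Cdkn2c, an inhibitor of the D cyclin kinases, rose by 0.78 ± 0.21 (adjusted p = 0.027), a call that ended at an adjusted p of 0.068 to 0.28 when P1 replicate 2 or 3 or P10 replicate 1 was left out. Mycl, a Myc family factor, was at 7.58, 7.64 and 7.65 at P1 and at 5.96 and 5.60 at P10 and fell by 1.84 ± 0.13 (adjusted p = 1.7e-06). Cdkn2b, another inhibitor, fell by 0.76 ± 0.22 (adjusted p = 0.036), a call that ended at an adjusted p of 0.079 to 0.27 when P1 replicate 2 or 3 or P10 replicate 1 or 2 was left out. With Cdkn1c, 3 of 15 tested genes fell and 3 rose (20% each, beside 6.15% and 5.57% of all genes), with a median of 0.10.

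Calcium, growth factors or the handling of cells can induce immediate early genes within minutes. Of 25 tested 0 rose, 6 fell (24%) and 19 did not pass, with a median of -0.35. Over all genes 5.57% rose and 6.15% fell. Npas4, a factor induced by membrane depolarization, was at 8.96, 8.55 and 9.15 at P1 and at 5.71 and 6.44 at P10, 7.04-fold lower (-2.82 ± 0.44, adjusted p = 0.00095). Arc and Egr4, also induced by activity, each fell by 1.91 (adjusted p = 0.0089 and 0.0078), and both had an adjusted p of 0.13 without P10 replicate 1. Egr2 fell by 1.75 ± 0.43 (adjusted p = 0.016), a call that ended at an adjusted p of 0.052 to 0.14 when P1 replicate 3 or P10 replicate 1 or 2 was left out. In Npas4, Arc, Egr4 and Egr2, P10 replicate 1 was the lowest of the 5 samples. Jun was at 8.65, 8.31 and 9.16 at P1 and at 7.17 and 7.92 at P10 and did not pass (-1.16 ± 0.38, adjusted p = 0.064). Without P10 replicate 1 only 1 of the 25 genes fell, and without P10 replicate 2 or P1 replicate 3 there were 3. Phosphatase genes of the MAP kinase pathway, themselves targets of that signalling, gave 3 falls and 0 rises among 18 genes with Dusp symbols, beside the same shares over all genes. Dusp4 fell by 1.86 ± 0.14 (adjusted p = 2.2e-06) to a level below background in 1 of 2 P10 samples, Dusp16 fell by 1.06 ± 0.13 (adjusted p = 0.00014) and Dusp8 by 1.14 ± 0.23 (adjusted p = 0.0055, and 0.065 without P10 replicate 2). The other probe of Dusp4 gave -0.50.

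Lists of metabolism and stress differed in their share of calls, where 5.57% of all genes rose and 6.15% fell. Falls made up 22.7% of the antioxidant, 11.1% of the fatty acid and 4.44% of the respiratory chain genes. Rises made up 17.6% of the cholesterol, 8.7% of the folding and 5.56% of the fatty acid genes. Of the amino acid and stress genes 19% rose and 9.52% fell. Of 45 tested genes of the respiratory chain 0 rose and 2 fell, namely Atp5b, a subunit of ATP synthase, by 0.77 ± 0.18 and Cox5b, a subunit of cytochrome c oxidase, by 0.50 ± 0.15. Atp5b had an adjusted p of 0.012, and 0.051 and 0.18 without P1 replicate 2 and P10 replicate 1. Cox5b had an adjusted p of 0.046, and its call ended at 0.052 to 0.40 when 1 of 7 samples was left out. Antioxidant genes gave 5 falls and 0 rises among 22 tested, with 3 falls without P1 replicate 3 or P10 replicate 1 and 2 without P10 replicate 2. Gpx3, a secreted glutathione peroxidase, was at 11.77, 11.76 and 11.45 at P1 and at 9.65 and 10.13 at P10 (-1.77 ± 0.17, adjusted p = 1.4e-05). Txnip, a glucose-induced inhibitor of thioredoxin that was placed in the same list, fell by 1.70 ± 0.25 (adjusted p = 0.00058), from 10.76, 10.91 and 10.87 to 9.34 and 8.94. Gpx2 fell by 1.10 ± 0.21 (adjusted p = 0.0035, and 0.058 without P10 replicate 2). Of 18 tested genes of fatty acid metabolism 1 rose and 2 fell, among them Fabp3, a fatty acid binding protein, by 0.97 ± 0.22 (adjusted p = 0.0098, and 0.054 and 0.093 without P10 replicates 1 and 2), and without either P10 replicate 0 of the list passed. Cholesterol synthesis gave 3 rises and 0 falls among 17, with a median of 0.39, but 1 rise without P1 replicate 1, P1 replicate 2 or P10 replicate 1 and 0 without P10 replicate 2. The clearest was Msmo1, a sterol oxidase, at 0.69 ± 0.15 (adjusted p = 0.0078, and 0.066 and 0.062 without P10 replicates 1 and 2). Of 23 tested genes of folding in the endoplasmic reticulum 2 rose, Ero1b, given above, and Xbp1, a factor of the unfolded protein response, by 0.46 ± 0.13 (adjusted p = 0.032), a call that ended at an adjusted p of 0.093 to 0.22 when P1 replicate 1 or P10 replicate 1 or 2 was left out. Genes of amino acid handling and the integrated stress response gave 4 rises and 2 falls among 21 tested, with 0 rises without P10 replicate 1 and 2 without P10 replicate 2. Nupr1, a stress-induced regulator, was at 4.70, 4.95 and 5.56 at P1 and at 6.39 and 5.91 at P10 (1.08 ± 0.25, adjusted p = 0.012, and 0.15 without P10 replicate 1). Eif4ebp1, a repressor of translation, fell by 1.09 ± 0.21 (adjusted p = 0.0038).

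Among 17 tested genes known to be held low in adult beta cells, 0 rose and 3 fell, 1 of them without P10 replicate 1. With all samples the share that fell was 17.6%, beside 6.15% of all genes. Zyx, an adhesion protein, was at 7.94, 7.64 and 8.10 at P1 and at 6.28 and 6.61 at P10, a fall of 1.45 ± 0.21 (adjusted p = 0.00051). Mgst1, a glutathione transferase, was below background in both P10 samples and at least 1.53-fold lower (adjusted p = 0.0034, and 0.068 without P10 replicate 1). Tgm2, a transglutaminase, fell by 1.02 ± 0.28 (adjusted p = 0.031), a call that ended at an adjusted p of 0.065 to 0.25 when P1 replicate 2 or 3 or P10 replicate 1 or 2 was left out. Of 53 tested Rab genes, regulators of vesicle traffic, 3 rose and 3 fell, shares near the 5.57% and 6.15% over all genes. Rab34 fell by 0.72 ± 0.11 (adjusted p = 0.00097), Rab15 by 1.14 ± 0.20 and Rab31 by 1.11 ± 0.19 (adjusted p = 0.0020 each). Of 30 tested genes with Kcn symbols, mostly potassium channels, 2 rose and 1 fell, beside the same shares of 5.57% and 6.15% over all genes. Kcnab3, a channel subunit, was between 5.47 and 5.52 at P1 and at 6.73 and 6.63 at P10, and rose by 1.19 ± 0.13 (adjusted p = 3.4e-05). Of 177 tested solute carrier genes 7 rose and 10 fell, shares near those over all genes.

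Digestive enzyme genes showed the largest rises of the comparison. Ctrl, a chymotrypsin-like protease, was at 4.96, 5.46 and 6.37 in P1 replicates 1, 2 and 3 and at 11.68 and 9.59 in P10 replicates 1 and 2, and rose by 5.04 ± 0.53 or 32.8-fold (adjusted p = 2.9e-05). Prss2, a trypsinogen, was at 4.66, 5.65 and 6.90 at P1, above background in 2 of 3 samples, and at 11.16 and 9.60 at P10 (4.64 ± 0.54, adjusted p = 8.2e-05). Cel, a lipase, was at 4.92, 6.47 and 6.92 at P1 and at 11.60 and 9.37 at P10 (4.38 ± 0.66, adjusted p = 0.00080). In each of these, P1 replicate 3 was the highest P1 sample and P10 replicate 1 the higher P10 sample, and the groups were far apart. Of 21 tested digestive enzyme genes 19 rose (90.5%, beside 5.57% of all genes), 0 fell and 2 did not pass, with a median of 3.96. The P10 samples lay above all P1 samples in 20 of them, and in 22% of all genes. The carboxypeptidases Cpa1 and Cpb1 rose 16.8-fold and 22.0-fold, the elastase Cela1 16.2-fold, the ribonuclease Rnase1 17.1-fold and the lipase-related Pnliprp2 12.7-fold. Amy2a5, a pancreatic amylase, ran from 5.48 to 8.57 at P1 and stood at 10.43 and 9.25 at P10 (2.79 ± 0.77, adjusted p = 0.030), a call that ended at an adjusted p of 0.062 to 0.24 when P1 replicate 1 or 2 or P10 replicate 1 or 2 was left out. Ctrb1, a chymotrypsinogen, and Try10, a trypsinogen, rose 18.7-fold and 20.1-fold, with adjusted p of 0.054 and 0.084 without P10 replicate 1. The 2 that did not pass were Prss3 (2.23 ± 0.72, adjusted p = 0.058) and the phospholipase Pla2g1b (0.61 ± 0.41, adjusted p = 0.38). Trypsinogens and kallikreins are families of near-identical genes, so a probe may also have read relatives. Without P10 replicate 1, 8 of the 21 genes rose.

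Other secreted products of acinar cells gave 9 rises and 0 falls among 14 tested genes, with a median of 1.35, and 5 rises without P10 replicate 1. With all samples the share that rose was 64.3%, beside 5.57% of all genes. Reg1, a secreted lectin, reached at most 8.29 at P1 and stood at 12.66 and 11.38 at P10 (4.86 ± 0.80, adjusted p = 0.0015). Spink1, a trypsin inhibitor, and Zg16, a lectin of zymogen granules, rose 13.1-fold and 13.7-fold. Bhlha15, a transcription factor of secretory cells, did not pass (0.44 ± 0.22, adjusted p = 0.22). The mean level of the 21 digestive enzyme genes was between 5.40 and 7.60 at P1 (mean 6.53 ± 1.10 SD, n = 3) and at 10.98 and 9.44 in P10 replicates 1 and 2 (mean 10.21). The difference was 3.68, with p = 0.2 in a two-sided exact permutation test over the 5 samples, the smallest p that 3 against 2 samples allow. Their summed signal was between 0.0491% and 0.317% of the intensity of all genes at P1, and 2.91% and 1.18% of it in P10 replicates 1 and 2.

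Promoter sequences of the digestive enzyme genes are shown because these genes moved together. The pancreatic transcription factor complex PTF1 is known to bind an E-box, here searched as CACCTG, beside a TC-box, here searched as TTTCCCA, each on both strands. In the 250 bases before the start of transcription, 11 of 17 promoters of tested digestive enzyme genes held the E-box (64.7%), against 17.2% of all 32851 promoters. The TC-box was found in 5 (29.4%, against 6.82%) and both motifs in 3 (17.6%, against 1.17%). Both were counted at any spacing and in any order within the 250 bases, so these counts do not show boxes side by side. Clps, Ctrc, Try10 and Try5 are not included. The 3 with both were Cel (chr2:28563404-28563653, minus strand), Cela2a (chr4:141826006-141826255, minus strand) and Prss2 (chr6:41521526-41521775, plus strand), printed below with Ctrl (chr8:105933863-105934112, minus strand), which rose most and held the E-box at 2 places. The sequences are those of RefSeq on GRCm38.p6, written 5′ to 3′ along the strand of the gene, with matches to either motif in capitals.
Cel: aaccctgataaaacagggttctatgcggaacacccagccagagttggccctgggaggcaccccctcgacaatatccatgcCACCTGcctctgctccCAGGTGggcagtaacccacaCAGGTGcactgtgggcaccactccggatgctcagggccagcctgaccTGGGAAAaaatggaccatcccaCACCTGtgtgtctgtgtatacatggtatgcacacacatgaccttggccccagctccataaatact
Cela2a: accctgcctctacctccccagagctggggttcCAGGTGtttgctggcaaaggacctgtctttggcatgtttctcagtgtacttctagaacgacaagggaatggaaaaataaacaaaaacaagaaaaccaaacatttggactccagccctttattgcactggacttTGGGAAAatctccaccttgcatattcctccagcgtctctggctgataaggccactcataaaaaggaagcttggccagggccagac
Prss2: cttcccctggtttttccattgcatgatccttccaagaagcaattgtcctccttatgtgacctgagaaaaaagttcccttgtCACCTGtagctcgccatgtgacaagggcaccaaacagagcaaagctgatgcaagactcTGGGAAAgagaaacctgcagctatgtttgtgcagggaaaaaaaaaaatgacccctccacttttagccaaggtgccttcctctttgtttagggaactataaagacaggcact
Ctrl: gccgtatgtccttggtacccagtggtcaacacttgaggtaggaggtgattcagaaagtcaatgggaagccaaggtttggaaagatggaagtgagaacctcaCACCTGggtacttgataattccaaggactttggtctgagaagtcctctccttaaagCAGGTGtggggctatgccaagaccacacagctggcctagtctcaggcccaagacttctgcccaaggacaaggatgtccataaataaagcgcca
The same stretch was read for Ucn3 (chr13:3945350-3945599, minus strand) and Dlk1 (chr12:109452573-109452822, plus strand), a gene that rose and the gene that fell most among those of endocrine cells, and held neither set of letters. As 17.2% of all promoters held the E-box and 6.82% the TC-box, 2 promoters without them give no contrast.
Ucn3: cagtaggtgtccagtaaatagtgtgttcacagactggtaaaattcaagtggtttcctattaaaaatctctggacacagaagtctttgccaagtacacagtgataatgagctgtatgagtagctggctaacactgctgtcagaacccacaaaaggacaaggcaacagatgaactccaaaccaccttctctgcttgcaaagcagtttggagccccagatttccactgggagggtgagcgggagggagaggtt
Dlk1: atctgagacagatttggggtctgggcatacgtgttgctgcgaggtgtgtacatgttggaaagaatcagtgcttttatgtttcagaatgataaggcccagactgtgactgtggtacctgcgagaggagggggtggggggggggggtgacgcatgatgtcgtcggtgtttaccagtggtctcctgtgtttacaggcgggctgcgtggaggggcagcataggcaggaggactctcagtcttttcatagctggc
A match is a description of the letters and no evidence of binding.

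The samples of 1 age differed in the digestive enzyme genes far more than in the median gene. P10 replicate 1 was above replicate 2 in 21 of 21, by a median of 1.64 log2 units and by more than 1 unit in 19 (90.5%), whereas over all genes the median gap was -0.01, with replicate 1 higher by more than 1 in 0.446% and replicate 2 in another 0.446%. Among the 484 genes that rose outside the acinar lists, the median gap was 0.02, with replicate 1 higher by more than 1 in 8 genes (1.65%) and replicate 2 in 1. Among the 565 that fell these counts were 0 and 4. The 8, chosen after their values were seen, were Klk1b27, Klk1b5, Gm5771, Gm5409, 2210010C04Rik, Zbtb2, Mcm6 and Mettl25. They count as outside the acinar lists by symbol alone, and whether any of them is an acinar gene was not tested. At P1, replicate 3 was the highest sample in 21 of 21 digestive enzyme genes and replicate 1 the lowest in 20. Over all 9193 genes these counts were 3015 and 3066. The stromal markers also differed within an age, with mean levels of 5.10, 5.33 and 6.45 in P1 replicates 1, 2 and 3. In P10 replicates 1 and 2 these markers stood at 4.94 and 5.92, the reverse order of the digestive enzyme genes. Over all genes the P10 gap ran from -2.96 to 2.24. Of the 484 genes that rose outside the acinar lists, P10 replicate 1 was the higher in 258, among them Car15, Gpr158 and Iapp, and replicate 2 in 225, among them Ucn3, Resp18, Trpm5 and Syt4. Over all 9193 genes replicate 1 was the higher in 4490 and replicate 2 in 4681.

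**Figure D4:**
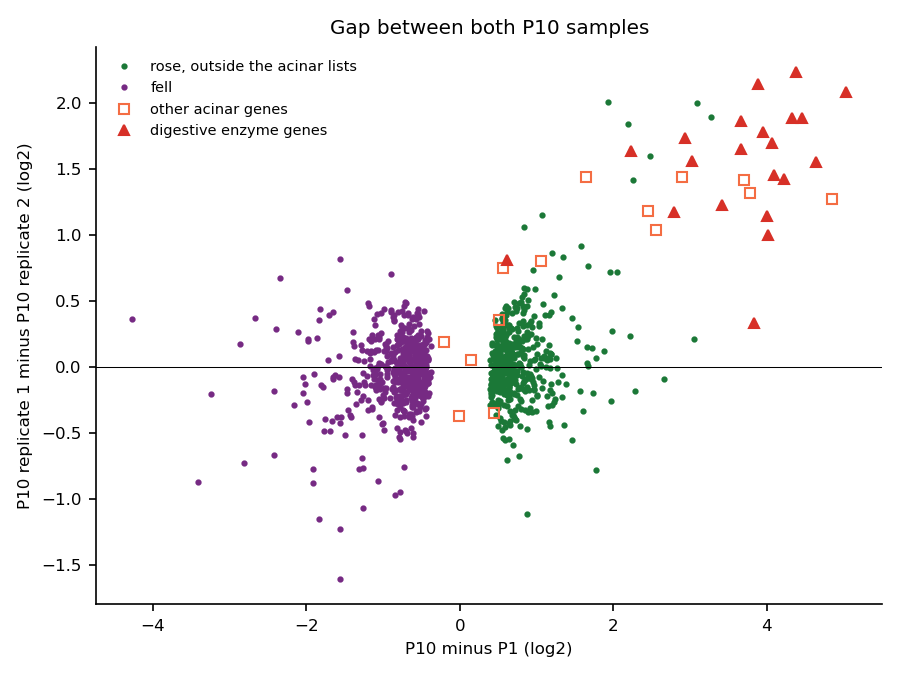
Each point is a gene that rose outside the acinar lists (green), fell (purple) or belongs to the digestive enzyme (red triangles) or other acinar genes (open squares), with its P10 minus P1 difference on the x axis and P10 replicate 1 minus replicate 2 on the y axis, both in log2 units. Digestive enzyme genes lie at gaps from 0.33 to 2.24, while the genes that rose outside the acinar lists scatter around 0 with a median gap of 0.02.

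The fit was repeated with the mean level of the 21 digestive enzyme genes in each sample as an added term, a quantity that itself differs between the ages. The number of calls fell to 54, with 17 higher and 37 lower, of which 52 were also called without the term. Car15 kept a difference of 2.97 (adjusted p = 0.0071), Ucn3 of 2.58 (adjusted p = 0.0068), Syt4 of 2.23 (adjusted p = 0.0015), Resp18 of 2.04 (adjusted p = 0.0029) and Gpr158 of 1.95 (adjusted p = 0.0058). Dlk1 stood at -4.33 (adjusted p = 3.6e-06), Grb10 at -2.37 (adjusted p = 0.0080) and Mycl at -2.23 (adjusted p = 0.0010). Of the same 20 rises, without clone-like names, 8 were called in that fit, and of the 20 falls 13. Among those not called, Trpm5 stood at 1.53 (adjusted p = 0.064), Iapp at 1.39 (adjusted p = 0.34), Stx1a at -1.35 (adjusted p = 0.062), Npy at -2.16 (adjusted p = 0.12) and Ghrl at -3.49 (adjusted p = 0.16), each with the same sign as before. The digestive enzyme genes entered that term themselves, and 1 of the 21, Cela1, was called with it.

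Markers of blood vessels, stroma, blood and nerve did not pass. In the limma fit 0 of 11 tested endothelial, 11 stromal, 8 leukocyte, 3 erythroid and 2 neural markers were called, beside 11.7% of all genes. An unadjusted p under 0.05 was found for 1 endothelial, 0 stromal, 1 leukocyte, 0 erythroid and 1 neural marker. The median differences of these lists lay between -0.27 and -0.12. Other markers, among them Cdh5, Kdr, Pdgfra and Ptprc, were not above background on enough arrays to be tested. Summed levels of the endothelial list ran from 893 to 1272 at P1 and from 701 to 1035 at P10, and those of the leukocyte list from 327 to 387 and from 282 to 359 (linear intensity). Those of the stromal list ran from 519 to 1291 at P1 and from 447 to 830 at P10. Beside 5.57% and 6.15% over all genes, 1 of 11 tested duct markers rose (9.09%), Tspan8, and 4 fell (36.4%), with a median of -0.44. These were Krt7 at -0.69 ± 0.12 (adjusted p = 0.0022), Krt8 at -0.73 ± 0.17, Krt18 at -0.74 ± 0.19 and Cldn4 at -0.78 ± 0.24, keratins and a claudin of epithelial cells. Krt7 was called whichever sample was left out, while the adjusted p without P10 replicate 1 was 0.15 for Krt8, 0.19 for Krt18 and 0.37 for Cldn4. Krt18 also lost its call without P1 replicate 2 or 3 or P10 replicate 2 (from 0.054 to 0.071), and Cldn4 without any 1 of 9 samples. Summed levels of the duct list ran from 3892 to 4504 at P1 and from 2397 to 3090 at P10. The part of duct cells in the falls was not tested.

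Values of the neighbouring intervals are set beside those of P1 to P10, with which they share the P1 or P10 samples. Ucn3 had mean levels of 6.64, 7.08, 9.75 and 9.99 over the 4 ages in order, and its change from P1 to P10 exceeded that from E18.5 to P1 by 2.22 (adjusted p = 0.00093) and that from P10 to adults by 2.42 (adjusted p = 0.0017). Resp18 and Gpr158 likewise exceeded the earlier interval by 1.58 and 1.73 and the later by 1.57 and 1.58 (adjusted p from 0.00068 to 0.0029). Syt4 rose again from P10 to adults, by 1.47 (adjusted p = 5.6e-06), and the difference between these intervals did not pass (0.82, adjusted p = 0.062). Dlk1 stood at 10.82, 10.96, 6.69 and 4.45 over the 4 ages, with 0.14 around birth (adjusted p = 0.53) and a further fall of 2.25 to adults (adjusted p = 2.3e-07). Npy went on falling, by 2.08 (adjusted p = 0.0011), as did Stx1a, by 0.75 (adjusted p = 0.0044), and Mycl, by 1.33 (adjusted p = 2.4e-05). Lgi2 stood at 9.48, 9.64, 6.77 and 6.96, and its change from P10 to adults was 0.19 (adjusted p = 0.73).

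Some genes changed direction from 1 interval to the next. Car15 stood at 8.36 at P10 and 6.45 in adults, a fall of 1.91 (adjusted p = 0.00011) after the rise, and Cbln4 at 6.92 and 4.91, a fall of 2.00 (adjusted p = 4.5e-06). Txnip had risen around birth by 1.23 (adjusted p = 0.0066), from 9.62 to 10.85, and was at 9.14 at P10. Mcm4 had fallen around birth by 1.02 (adjusted p = 0.0063), was at 8.55 both at E18.5 and at P10, and fell by 1.43 to adults (adjusted p = 0.00034). Over the 27 replication genes, 20 fell and 0 rose from E18.5 to P1 (2.88% of all genes fell), and 20 fell and 0 rose from P10 to adults (7.41% of all genes). The median difference was -0.89 in the former interval, 0.53 from P1 to P10 and -0.93 in the latter. Digestive enzyme genes had a median of 1.05 around birth, where 0 of 21 were called (2.59% of all genes rose), and of 0.41 from P10 to adults, where 3 rose (6.07% of all genes). Ctrl stood at 4.98, 5.60, 10.64 and 11.10 over the 4 ages, and its change from P1 to P10 exceeded both others (adjusted p = 0.0070 and 0.015).

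**Figure D5:**
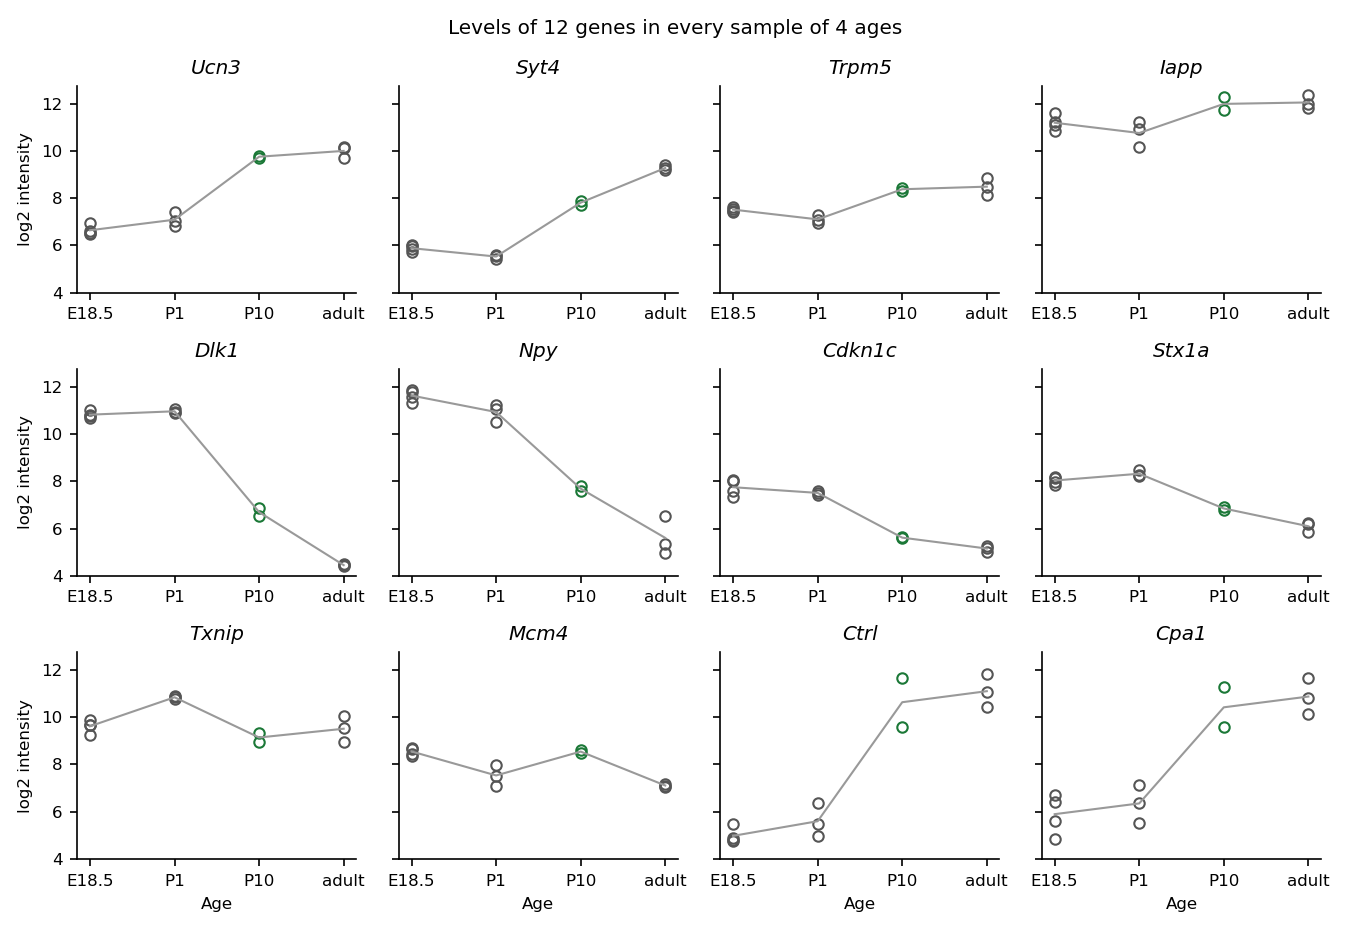
Levels (log2 intensity, y axis) of 12 genes in every sample of the 4 ages (x axis), with the P10 samples in green and a line through the mean of each age. Ucn3, Syt4, Ctrl and Cpa1 step up and Dlk1, Npy and Stx1a step down between P1 and P10, and Mcm4 is at 8.55 both at E18.5 and at P10.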

How the data were processed

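RNA was measured on Illumina arrays in 12 samples, and the values used were linear probe intensities, as the authors deposited them, of 25697 probes. Per the labels' protocols, biotin-labelled cRNA was made from the RNA of sorted cells. Any scaling or background step before deposit is not given in the sources used here. A table with 24 further columns could not be matched to samples by name and was left out. From the intensities, background was modelled with normexp (offset 16), arrays were quantile normalized, and log2 was taken. A probe counted as above background past a limit set at the 0.01 level from the mode of each array's signals and the spread below it. Probes above it on at least 2 arrays were kept, and the probe with the highest mean stood for a gene. A single symbol was given for 23978 probes, several for 0 and none here for 1719, and 23962 gene IDs were found in RefSeq, from which symbols and promoter sequences (GRCm38.p6) came. Of 9193 genes tested, 2367 had more than 1 kept probe.

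Genes were tested with limma (version 3.58.1, R 4.3.3), with lmFit and eBayes over the 12 samples, age as a factor and Benjamini-Hochberg adjustment at 0.05. For genes below background on all arrays of an age, folds are given as "at least", against the dimmest above-background level of each array or, if brighter, that of the probe itself. Genes were named by rule: the 20 largest rises outside the acinar lists and 20 largest falls among called genes with no overlap between ages and no clone-like name (Rik, Gm and the like), the 10 largest acinar rises, up to 4 called genes per direction and 2 not called from each of 28 lists by p, a fixed set of islet genes, and called members of 9 gene families. This gave 210 genes, of which the text names part. The members, lists and rules were chosen with earlier results of these data known. Lists are described by counts and medians only, and overlap between them was not removed. The labels do not tell whether samples with the same replicate number were prepared together, and the main fit used no pairing. The deviations of same-numbered P1 and P10 samples correlated at -0.03 and -0.07. With 2 samples at P10 their deviations mirror each other, so these values cannot settle whether samples were paired. No pair of samples shared more than 0.95% of values, so all were kept apart. Alternatives were other background corrections, scalings, probe filters and variance settings, a replicate block, the ages compared alone, the mean digestive enzyme level as a term, a test against 2-fold, and leaving out every sample in turn. In simulated data with 200 of 9193 genes changed, 87% of changes of 1 log2 unit and 96% of changes of 2 units were recovered, and 4.19% of calls were false. There the noise was drawn independently for each gene and sample, without variation shared by the genes of a sample. These rates therefore need not hold for the real arrays. Some fixed genes are not analysed here. Plots used matplotlib 3.10.9 (Python 3.11.15).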

Additional observations from a re-analysis of the deposited data

How the results depend on the processing

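The 1077 calls, 512 higher and 565 lower, became 41 (18 and 23) when a change of at least 2-fold was tested and 54 (17 and 37) with the mean digestive enzyme level as a term. With array weights 1580 genes were called, 770 of them higher. Leaving out 1 sample gave from 389 (without P10 replicate 1) to 1183 calls (without adult replicate 3), from 176 to 571 higher and from 213 to 612 lower. In the other 11 settings, which were other background corrections, scalings, probe filters, averaging of kept probes per gene, eBayes with trend and robust settings, only the ages compared and the replicate block, the count lay between 998 and 1149. With the replicate number as a block it was 1118 (504 higher, 614 lower). The mean digestive enzyme difference of 3.68 lay between 3.18 and 3.71 under other corrections, scalings, filters and probe rules, and between 2.91 and 4.46 with 1 sample left out. With the mean digestive enzyme level as a term, 5 of the named genes that had been called changed sign without passing, namely Try10 (-0.62), Ctrb1 (-0.21), Amy2a5 (-1.60), Klk1b5 (-0.009) and Klk1b27 (-0.83), the first 3 of which are part of that term. No other alternative turned the sign of a called named gene. Of 147 named genes that were called, 72 remained called whichever sample was left out, 67 lost their call when P10 replicate 1 was left out and 45 when replicate 2 was. The cause of these losses was not tested, and with 2 samples at P10 a fit without either assumes that the lone sample varies like those of the other ages. Signal over background limits the dim genes named as below background.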
